A study of Homo sapiens with 12 samples.

Results

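The genes described here encode the enzymes and transporters of glucose uptake, glycolysis, lactate formation and export, the pentose phosphate pathway and the tricarboxylic acid (TCA) cycle. They were taken by symbol from a list of 50 genes, and no measured value entered the rule. The list was chosen with earlier results of these data known. Of these, 49 were measured, among 14866 genes in all: 26 of glycolysis and its branches, 6 of the pentose phosphate pathway and 17 of the TCA cycle and its cytosolic counterparts. PFKFB2 was not analysed here. All 49 passed the filter on low values (at least 10 normalized counts in at least 3 libraries), as did 13502 of all genes.

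RNA-seq was performed in SHI-1 cells, a human acute myeloid leukemia (AML) line carrying the MLL-AF6 fusion. Cells were exposed for 16 h to DMSO vehicle, to disulfiram (DSF, 0.3 µM with 1 µM copper), to niclosamide (NSM, 5 µM) or to DSF and NSM together at those doses, with 3 libraries in each of the 4 groups. The replicates came from independent experiments in a single cell line. The sources used here do not say whether the DMSO and NSM cultures also received copper. DSF is an alcohol-deterrent drug whose copper complex is toxic to tumor cells, and NSM is an anthelmintic that carries protons across the inner mitochondrial membrane and so uncouples respiration from ATP synthesis.

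Glycolysis splits glucose into pyruvate in the cytosol, with a small yield of ATP, and lactate dehydrogenase turns pyruvate into lactate, which leaves the cell through monocarboxylate transporters. The pentose phosphate pathway branches off at glucose phosphate: its oxidative branch makes NADPH and its non-oxidative branch exchanges sugar phosphates with glycolysis. The TCA cycle oxidizes acetyl groups in the mitochondrial matrix and feeds electrons to the respiratory chain, the process that an uncoupler separates from ATP synthesis. AML cells draw on both glycolysis and mitochondrial respiration. The comparisons below ask how the transcripts of the 3 pathways stood after each drug and after the pair.

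The values are normalized counts, that is, read counts per gene that the authors divided by a size factor for each library. Per library they summed to between 13963864 and 14379702 with DMSO, between 14907290 and 15330685 with DSF, between 16477426 and 17516910 with NSM and between 22657898 and 25584448 with DSF + NSM. The depth behind them was an estimated 10206614 to 19031015 reads per library. The groups' sums therefore differ, and counts of genes higher or lower are given below also after scaling every library to the same sum. NSM replicate 3 stood apart: its Spearman correlation over all genes with the other NSM libraries was 0.952 and 0.959, against 0.981 to 0.996 for replicate pairs of the other groups and 0.993 for NSM replicates 1 and 2. It was the lowest NSM library for 17 of the 26 glycolysis genes, 5 of the 6 pentose phosphate genes and 8 of the 17 TCA genes, so counts of called genes and the called NSM differences of named genes are given with and without it. Myeloid genes were present, with DMSO means from 59.6 normalized counts for CD14 and 78.6 for CSF1R to 58058 for MPO, the granule peroxidase of myeloid precursors. MPO averaged 31892 with DSF, 16981 with NSM and 21249 with DSF + NSM. Of the markers of other cells, the B cell gene MS4A1 was at 0 in every library, and CD3D and KRT8 had group means between 1.33 and 20.2. The T cell gene CD3E averaged 71.9 in DMSO and the endothelial and myeloid gene PECAM1 averaged 887.

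Fold changes are log2 differences of group means of log2(normalized count + 1), with their standard error (SE), and p-values are from limma, adjusted over all 13502 genes by the Benjamini-Hochberg method. A gene is called changed when the adjusted p is under 0.05. Groups whose libraries do not overlap were common. Against DMSO this held for 60.9% of all genes tested with DSF, 57.0% with NSM and 69.3% with DSF + NSM. For DSF + NSM it held for 62.4% against DSF and 41.5% against NSM. Levels are compared between genes only per kilobase (kb) of the canonical GENCODE transcript. In these bulk libraries, fewer cells of a type and less RNA per cell cannot be told apart.

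In DMSO, GAPDH, the dehydrogenase of the middle of glycolysis, had the highest level of the 49 genes at 75220 ± 2777 normalized counts per kb (SD, n = 3). It was followed by the enolase ENO1 at 21117 ± 835 and the aldolase ALDOA at 16127 ± 389 per kb. The next levels in DMSO were those of TPI1 (10987 ± 83.9 per kb), LDHA (10704 ± 784 per kb) and LDHB (10606 ± 127 per kb), and the means of TPI1 and LDHB lay within 1 SD of that of LDHA. GAPDH kept the highest level per kb in each of the 4 groups. TKT, the transketolase of the non-oxidative pentose phosphate branch, stood at rank 11 per kb in DMSO and at rank 5 in both NSM and DSF + NSM, whereas LDHA moved from rank 5 in DMSO to rank 9 in NSM and rank 11 in DSF + NSM. GENCODE names 65 pseudogenes of GAPDH, 13 of PGAM1 and 6 of LDHA, and ALDOA shares 1639 exon bases with another gene on its strand, so reads of these genes can be split or shared in ways the tables do not show.

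After NSM alone, transcripts of most listed glycolysis genes fell. The medians below hold for the listed genes, and other genes of these and neighbouring pathways are given after the promoters. Of 26 glycolysis genes, 17 fell and 1 rose after NSM against DMSO, and the median difference was -0.79 on the log2 scale, against 0.01 over all genes. Of the 6 pentose phosphate genes 2 rose and 2 fell, with a median of 0.25, and of the 17 TCA genes 4 rose and 4 fell, with a median of 0.14. In all, 30 of 49 genes were called by limma at an adjusted p under 0.05, 7 higher and 23 lower, where 49.1% of all genes were called, 25.4% higher and 23.7% lower. After scaling to equal sums 36 were called, 5 higher and 31 lower, where 6754 of 13537 genes were called and the median of all genes was -0.25. Without NSM replicate 3, 34 were called, 11 higher and 23 lower, where 8076 of 13476 genes were called. In that fit the glycolysis median less the median of all genes moved from -0.80 to -0.64.

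**Figure D1:**
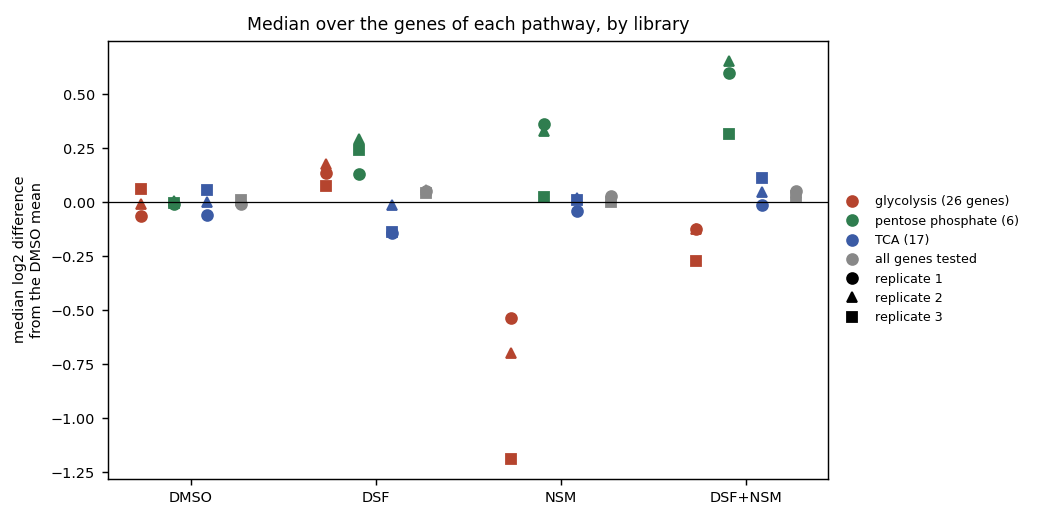
Median log2 difference from the DMSO mean of the genes of each pathway in each of the 12 libraries (vertical axis, log2 scale), with a symbol for each replicate and all genes tested in grey. The glycolysis medians of the NSM libraries were -0.53, -0.70 and -1.19 and those of the DSF + NSM libraries -0.12, -0.13 and -0.27, while the pentose phosphate medians of DSF + NSM were 0.60, 0.66 and 0.32.

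The falls ran from hexose phosphate to lactate. Of the 6 genes of the hexose phosphate steps 4 fell after NSM, of the 9 genes of the triose phosphate steps 7 fell, with a median of -0.90, and of the 4 genes of lactate formation and export 3 fell. PGK1, the phosphoglycerate kinase that makes ATP in glycolysis (chrX:77910739-78129295, GRCh38), stood at 10452, 11718 and 11299 normalized counts in DMSO replicates 1 to 3 and at 4486, 4387 and 3339 in NSM. Every NSM library was below every DMSO library. The difference was -1.47 (SE 0.12, limma adjusted p = 2.24e-06), and -1.33 without NSM replicate 3. PGAM1, the phosphoglycerate mutase of the following step, stood at 7062, 7391 and 7722 in DMSO and at 3361, 3421 and 2043 in NSM, a difference of -1.37 (SE 0.17, limma adjusted p = 4.7e-05). The other triose phosphate genes called lower were TPI1 at -1.15, ENO2 at -0.93, PKM at -0.90, ALDOC at -0.83 and ENO1 at -0.76. Leaving out NSM replicate 3 gave -1.12 for PGAM1, -0.92 for TPI1, -0.62 for ENO2, -0.88 for PKM, -0.64 for ALDOC and -0.46 for ENO1, so that the falls of ENO2 and ENO1 shrank by over 1.5 times, and all 6 stayed called. GAPDH did not pass the test after NSM (0.11, limma adjusted p = 0.595), and its NSM libraries spread from 76174 to 134773 normalized counts. GAPDH was called higher, at 0.34, once NSM replicate 3 was left out.

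PFKP, the platelet-type phosphofructokinase of the committed step (chr10:3066333-3137718), stood at 1126, 1096 and 1134 normalized counts in DMSO and at 446, 460 and 219 in NSM. The groups did not overlap, and NSM replicate 3 was the lowest library. The difference was -1.65 (SE 0.23, limma adjusted p = 9.93e-05), and -1.30 without that library. The liver-type PFKL fell by 1.07 as well, and by 0.70 without that library, while the muscle-type PFKM, at 29.8 to 54.3 normalized counts in NSM, did not pass the test (-0.71).

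PFKFB4 and PFKFB3 encode the bifunctional enzymes that set the level of fructose-2,6-bisphosphate, the allosteric activator of phosphofructokinase. PFKFB4 (chr3:48517684-48562015) stood at 507, 438 and 550 normalized counts in DMSO, at 350, 310 and 371 in DSF, at 162, 166 and 70.8 in NSM and at 172, 216 and 172 in DSF + NSM. All libraries with NSM were below all libraries without it. The NSM difference of PFKFB4 from DMSO was -1.99 (SE 0.27, limma adjusted p = 9.34e-05), and -1.59 without NSM replicate 3. PFKFB3 stood at 372 to 456 normalized counts in DMSO, at 589 to 717 in DSF, at 336 to 488 in NSM and at 673 to 970 in DSF + NSM, and was called higher in DSF (0.66) and DSF + NSM (1.05) but not in NSM (0.05). Per kb, PFKFB3 was 39.3% ± 2.85 (SD, n = 3) of the PFKFB3 and PFKFB4 level in DMSO and 78.0% ± 3.18 in DSF + NSM.

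SLC16A1, the monocarboxylate transporter MCT1 (chr1:112911847-112957593), stood at 1659, 1799 and 1749 normalized counts in DMSO, at 951, 802 and 923 in DSF, at 423, 493 and 762 in NSM and at 566, 478 and 594 in DSF + NSM. The DMSO libraries were above all others, and the DSF libraries lay above all libraries with NSM. The differences of SLC16A1 from DMSO were -0.96 after DSF, -1.68 after NSM and -1.67 after DSF + NSM (SE 0.19 each, limma adjusted p = 0.0052, 2.21e-05 and 1.56e-05). NSM replicate 3 was the highest NSM library for this gene, and without it the NSM difference was -1.92. SLC16A3, the monocarboxylate transporter MCT4, stood at 3303 to 3396 in DMSO, at 3884 to 4072 in DSF, at 1462 to 3060 in NSM and at 2193 to 2392 in DSF + NSM. It was not called against DMSO in any group in the fit of all 12 libraries. Over 23 settings, that fit included, its DSF + NSM difference ran from -1.33 to -0.52 and was called in 10.

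LDHA encodes the lactate dehydrogenase subunit that favors lactate formation, and LDHB the subunit of tissues that use lactate. LDHA (chr11:18394560-18408425) stood at 22201, 24043 and 25716 normalized counts in DMSO, at 18006, 15595 and 18216 in DSF, at 8915, 8890 and 12518 in NSM and at 8745, 8601 and 7806 in DSF + NSM. The 4 groups kept this order, with the DSF + NSM libraries below all others. NSM replicate 3 was the highest NSM library for LDHA, and the NSM difference was -1.43 without it. The differences of LDHA from DMSO in all libraries were -0.47 after DSF, -1.26 after NSM and -1.52 after DSF + NSM (SE 0.14 each, limma adjusted p = 0.0355, 1.82e-05 and 2.78e-06). LDHB (chr12:21635342-21757857) stood at 13684, 14003 and 13769 in DMSO, at 9992, 9486 and 11272 in DSF, at 11380, 10954 and 10434 in NSM and at 15644, 14405 and 13412 in DSF + NSM. LDHB fell after either drug alone (-0.43 after DSF and -0.34 after NSM, or -0.31 without NSM replicate 3) and did not pass the test with both (0.07, limma adjusted p = 0.623), where its libraries overlapped with DMSO. Per kb, LDHA made up 50.2% ± 1.77 (SD, n = 3) of the LDHA and LDHB level with DMSO, 49.5% ± 1.46 with DSF, 34.8% ± 5.45 with NSM and 25.2% ± 0.625 with DSF + NSM. The NSM libraries held LDHA shares of 31.3%, 32.1% and 41.1%, the last in replicate 3, and did not overlap with the other groups. LDHB shares 997 exon bases with another gene on the same strand, and reads there cannot be assigned with certainty.

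**Figure D2:**
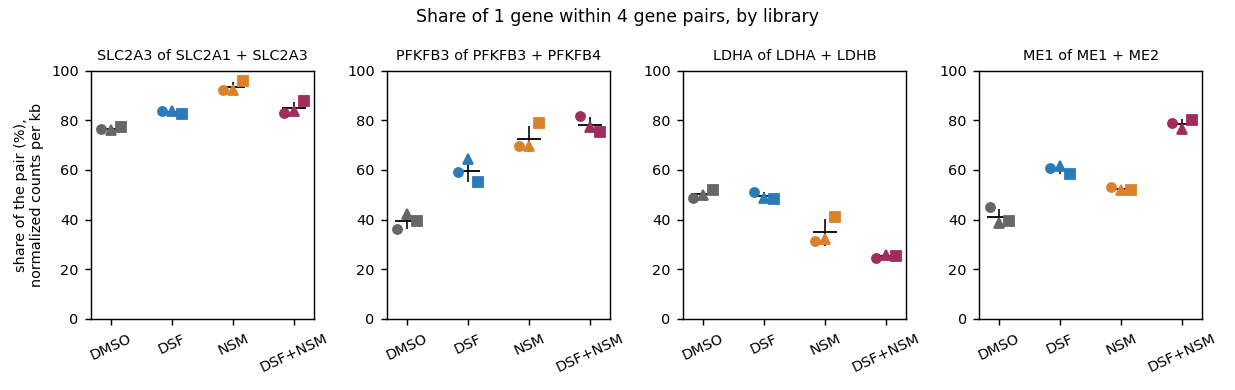
Shares of SLC2A3, PFKFB3, LDHA and ME1 in the summed level of their pairs with SLC2A1, PFKFB4, LDHB and ME2. The vertical axis is in percent of normalized counts per kb. Circles, triangles and squares are replicates 1, 2 and 3, with the mean ± SD of 3 libraries in black. The mean LDHA share was 50.2% in DMSO and 25.2% in DSF + NSM, and ME1 stood at 41.0% in DMSO and 78.6% in DSF + NSM.

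The pyruvate dehydrogenase kinases hold back entry of pyruvate into the TCA cycle. PDK3 (chrX:24465244-24550466) stood at 442, 418 and 454 normalized counts in DMSO, at 230, 148 and 260 in DSF, at 150, 202 and 154 in NSM and at 183, 225 and 159 in DSF + NSM. The treated groups overlapped with each other and lay below DMSO. The differences of PDK3 were -1.08, -1.38 and -1.22 in that order (SE 0.22 each, limma adjusted p = 0.0061, 0.000272 and 0.00055). PDK2 fell after NSM (-0.54) and PDK1 did not pass the test in any of these comparisons. With NSM replicate 3 left out, the NSM difference was -1.32 for PDK3, -0.71 for PDK2 and -0.50 for PDK1, the last then called.

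SLC2A3, the high-affinity glucose transporter GLUT3 (chr12:7919230-8019007), stood at 1694, 1657 and 1964 normalized counts in DMSO, at 3595, 3965 and 3318 in DSF, at 6024, 5705 and 7217 in NSM and at 4012, 4236 and 5945 in DSF + NSM. Every treated library was above every DMSO library, and NSM replicate 3 was the highest of all. SLC2A3 rose 2.05-fold after DSF (1.03 on the log2 scale), 3.55-fold after NSM (1.83) and 2.64-fold after DSF + NSM (1.40), with an SE of 0.16 on the log2 scale and limma adjusted p = 0.00103, 2.86e-06 and 1.43e-05. The NSM difference of SLC2A3 was 1.73 without that library. SLC2A1, the basal transporter GLUT1, stood at 457 to 505 in DMSO, at 614 to 672 in DSF, at 271 to 456 in NSM and at 718 to 728 in DSF + NSM. It was called against DMSO only in DSF + NSM (0.60). That difference turned to -0.18 on the equal-sum scale, where the median of all genes was -0.75. Per kb, SLC2A3 made up 76.7% ± 0.767 (SD, n = 3) of the summed level of these transporters in DMSO and 93.4% ± 2.17 in NSM. SLC2A3 was the only glycolysis gene called higher after NSM. Of the hexokinases, which trap glucose in the cell, HK1 rose after DSF (0.54) and fell after NSM (-0.29, or -0.27 without NSM replicate 3), and HK2 was not called against DMSO in any group.

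**Figure D3:**
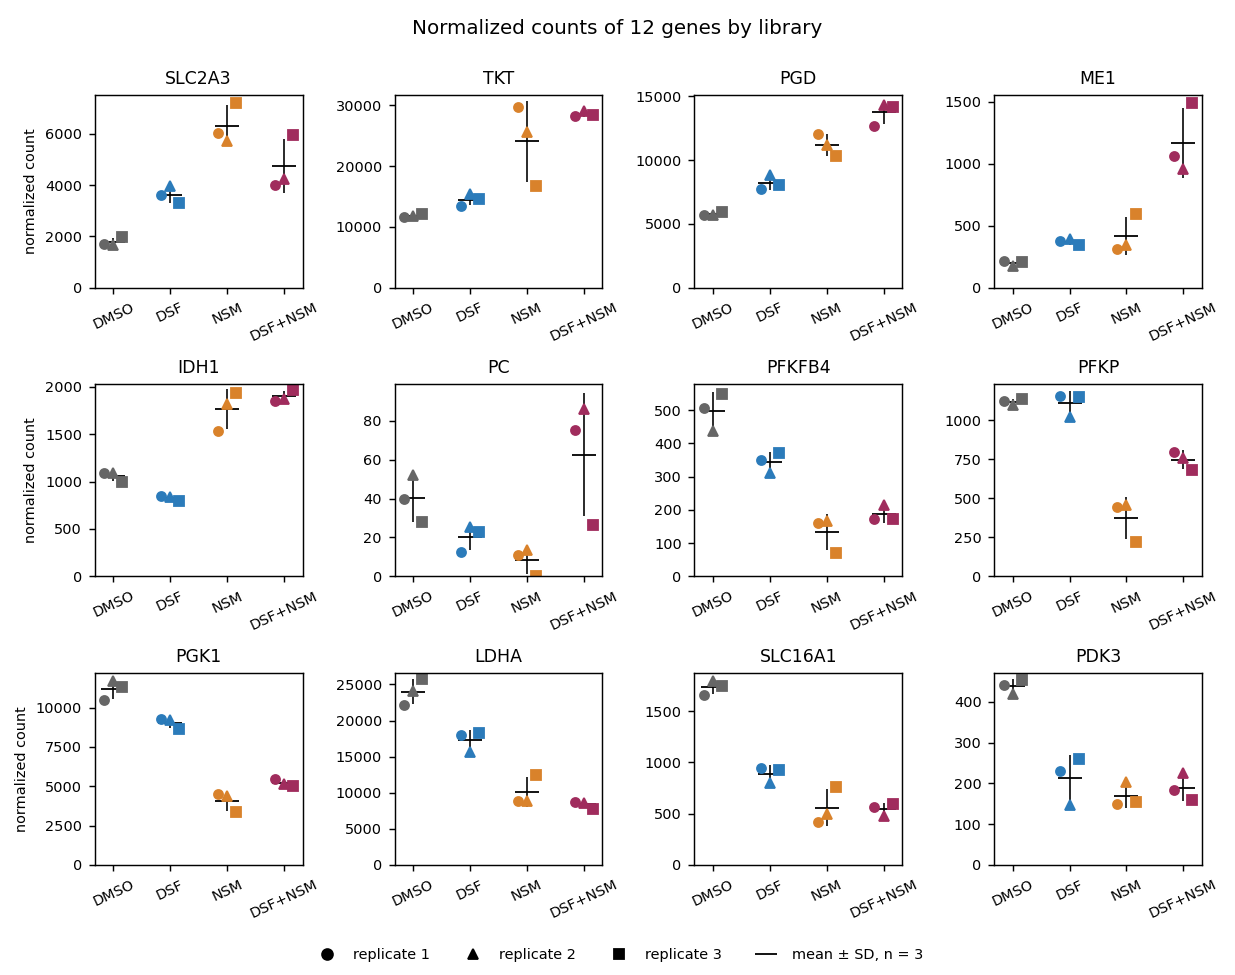
Normalized counts (vertical axes, linear from 0) of 12 genes in each library, grouped by treatment, with a symbol for each replicate and the mean ± SD of 3 libraries in black. SLC2A3 lay above DMSO in every treated library, whereas LDHA, PGK1 and SLC16A1 lay below DMSO in every NSM and DSF + NSM library.

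The pentose phosphate genes did not move as a block. PGD, the second NADPH-making dehydrogenase of the oxidative branch (chr1:10398592-10420511), stood at 5664, 5734 and 5913 normalized counts in DMSO, at 7771, 8822 and 8052 in DSF, at 12082, 11210 and 10348 in NSM and at 12707, 14316 and 14190 in DSF + NSM. The 4 groups did not overlap. PGD was higher by 0.51 after DSF, 0.96 after NSM and 1.25 after DSF + NSM on the log2 scale (SE 0.10 each, limma adjusted p = 0.00599, 1.55e-05 and 1.15e-06), and the NSM difference was 1.01 without replicate 3. TKT (chr3:53224712-53256052) stood at 11662, 11804 and 12080 in DMSO, at 13463, 15400 and 14625 in DSF, at 29785, 25580 and 16806 in NSM and at 28244, 29054 and 28372 in DSF + NSM. NSM replicate 3 was far below the other NSM libraries and still above DSF. TKT rose 1.97-fold after NSM (0.98 on the log2 scale, SE 0.17, limma adjusted p = 0.000445) and 2.41-fold after DSF + NSM (1.27, adjusted p = 4.87e-05), and by 1.22 on the log2 scale after NSM without replicate 3. The remaining non-oxidative genes did not follow TKT. RPIA, the ribose phosphate isomerase, fell after NSM (-0.46, or -0.39 without NSM replicate 3) and after DSF + NSM (-0.44). TALDO1, the transaldolase, fell after NSM (-0.50), but missed the threshold once NSM replicate 3 was left out (-0.25, limma adjusted p = 0.0644). RPE was called in none of the comparisons with DMSO. PGLS, the lactonase between the oxidative steps, was at 2498, 2411 and 990 normalized counts in NSM against 1316 to 1436 in DMSO, and was called higher without NSM replicate 3 (0.85) and with library weights (0.83).

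In the TCA cycle the calls were split between directions. Of the 11 genes of the mitochondrial cycle 2 rose and 1 fell after NSM, and 4 rose and 2 fell after DSF + NSM. CS, the citrate synthase that opens the cycle, rose after NSM (0.38) and after DSF + NSM (0.42). SUCLG1, a subunit of succinyl-CoA ligase, rose in both as well (0.45 and 0.30). The subunits of the NAD-dependent isocitrate dehydrogenase parted: IDH3A fell after NSM (-0.79) and DSF + NSM (-0.67), whereas IDH3B (0.87) and IDH3G (0.70) rose after DSF + NSM. The size and sign of the DSF + NSM rises depended on scaling to equal sums. On that scale the DSF + NSM difference was -0.37 for CS, -0.48 for SUCLG1, 0.087 for IDH3B and -0.081 for IDH3G. The median of all genes was then -0.75, and each of these genes lay above it. None of these rises turned sign with a trimmed mean of M values or the median of ratios. In the fit without NSM replicate 3 the NSM difference was 0.30 for CS, 0.38 for SUCLG1 and -1.12 for IDH3A. IDH3A stood at 517, 564 and 1063 normalized counts in the NSM libraries against 1131 to 1216 in DMSO, so that its fall was smaller in replicate 3, and it shares 2646 exon bases with the genes ACSBG1 and CIB2 on the opposite strand. OGDH, a subunit of oxoglutarate dehydrogenase, was called higher after DSF (0.49) but not after NSM (-0.29). FH, the fumarase, fell after DSF + NSM (-0.46).

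All 4 cytosolic counterparts of TCA enzymes were called after NSM, 2 higher and 2 lower. ME1, the cytosolic malic enzyme that makes NADPH and pyruvate from malate (chr6:83210402-83431051), stood at 212, 178 and 204 normalized counts in DMSO, at 376, 391 and 342 in DSF, at 313, 342 and 591 in NSM and at 1059, 957 and 1485 in DSF + NSM. Each treated group lay above DMSO, and DSF + NSM lay above all others. ME1 rose 1.86-fold after DSF (0.90, SE 0.23, limma adjusted p = 0.0203), 2.01-fold after NSM (1.01, adjusted p = 0.00338) and 5.78-fold after DSF + NSM (2.53, adjusted p = 2.69e-06). The NSM difference of ME1 was 0.73 with NSM replicate 3 left out. ME1 was 41.0% ± 3.44 (SD, n = 3) of the per kb level of ME1 and the mitochondrial ME2 in DMSO and 78.6% ± 1.94 in DSF + NSM. IDH1, the cytosolic NADP-dependent isocitrate dehydrogenase (chr2:208236229-208266074), stood at 1095, 1087 and 995 in DMSO, at 851, 835 and 798 in DSF, at 1536, 1821 and 1939 in NSM and at 1856, 1876 and 1969 in DSF + NSM. IDH1 rose after NSM (0.73, or 0.66 without NSM replicate 3) and after DSF + NSM (0.84), and the lower DSF values did not pass the test (-0.35). MDH1, the cytosolic malate dehydrogenase (chr2:63588609-63607197), stood at 4678, 4440 and 4076 in DMSO and at 2739, 2700 and 3296 in DSF, and fell after DSF (-0.60, SE 0.11, limma adjusted p = 0.00357), NSM (-0.39, or -0.35 without NSM replicate 3) and DSF + NSM (-0.34). ACO1, the cytosolic aconitase that also binds iron-responsive RNA, fell after NSM (-0.63, or -0.53 without NSM replicate 3). PC, the pyruvate carboxylase that refills the cycle, had low values, at 39.9, 52.4 and 28.0 normalized counts in DMSO, at 12.5, 25.3 and 22.6 in DSF, at 11.1, 13.7 and 0 in NSM and at 75.2, 86.1 and 26.5 in DSF + NSM. Its NSM difference was -2.83 (SE 0.83, limma adjusted p = 0.0137) and -1.58 without NSM replicate 3, and at such counts its size depends on the added count of 1.

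DSF given alone had fewer called genes in the fit of all 12 libraries, an order that did not hold over all genes in fits of 2 groups. After DSF, 13 of 49 were called by limma at an adjusted p under 0.05, 8 higher and 5 lower, where 17.8% of all genes were called, 11.9% higher and 5.95% lower. In glycolysis 4 rose and 4 fell (median 0.15), in the pentose phosphate pathway 1 rose (median 0.22) and in the TCA group 3 rose and 1 fell (median -0.05). Among called genes, the largest rises were in SLC2A3, ME1, PFKFB3 (0.66, SE 0.19, adjusted p = 0.0297) and IDH2 (0.58, SE 0.18, adjusted p = 0.0398), and the largest falls in PDK3, SLC16A1, MDH1 and LDHA. PC (-0.97), PFKFB4 (-0.53) and SUCLA2 (-0.52) had lower values of the difference than LDHA and did not pass the test. IDH2, the mitochondrial NADP-dependent isocitrate dehydrogenase, stood at 2250, 2379 and 2541 normalized counts in DMSO and at 3366, 3827 and 3555 in DSF. PKM, the pyruvate kinase that ends glycolysis, rose after DSF (0.34) and fell after NSM (-0.90). GAPDH stood at 94541, 94656 and 100778 in DMSO and at 134785, 142026 and 132592 in DSF, without overlap, and missed the threshold (0.50, adjusted p = 0.0553). The count depended on which libraries entered the fit. Without NSM replicate 3, 33 genes were called after DSF, 20 higher and 13 lower, where 5551 of all 13476 genes were called. A fit of the DSF and DMSO libraries alone called 40, where 7150 of 12766 genes were called. The fit of the NSM and DMSO libraries alone called 4991 of 12649 genes. Leaving out a DMSO or DSF library gave 6 to 8 calls for DMSO replicates 1, 2 and 3 and DSF replicates 1 and 2. Those fits called 911 to 1393 of 13444 to 13476 genes. After scaling to equal sums 13 were called, 5 higher and 8 lower, where 2460 of 13537 genes were called.

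With both drugs, 23 of 49 genes were called against DMSO by limma at an adjusted p under 0.05, 12 higher and 11 lower, where 52.8% of all genes were called, 28.3% higher and 24.5% lower. In glycolysis 4 rose and 7 fell (median -0.22), in the pentose phosphate pathway 2 rose and 1 fell (median 0.52) and in the TCA group 6 rose and 3 fell (median 0.12). Among called genes the 4 largest rises were those of ME1, SLC2A3, TKT and PGD and the 4 largest falls those of SLC16A1, LDHA, PFKFB4 (-1.42, SE 0.27, adjusted p = 0.000931) and PDK3. All 8 of these calls held in each of the 22 alternative settings. The groups' sums differed most in this comparison. Without NSM replicate 3, 34 were called, 15 higher and 19 lower, where 9130 of 13476 genes were called. After scaling to equal sums 37 genes were called, 4 higher and 33 lower. Of all 13537 genes 9141 were called on that scale, with a median of -0.75. The 4 that rose on that scale were ME1 (1.75), SLC2A3 (0.61), TKT (0.48) and PGD (0.47), and GAPDH, called higher on the deposited scale (0.75, adjusted p = 0.0022), stood at -0.034.

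**Figure D4:**
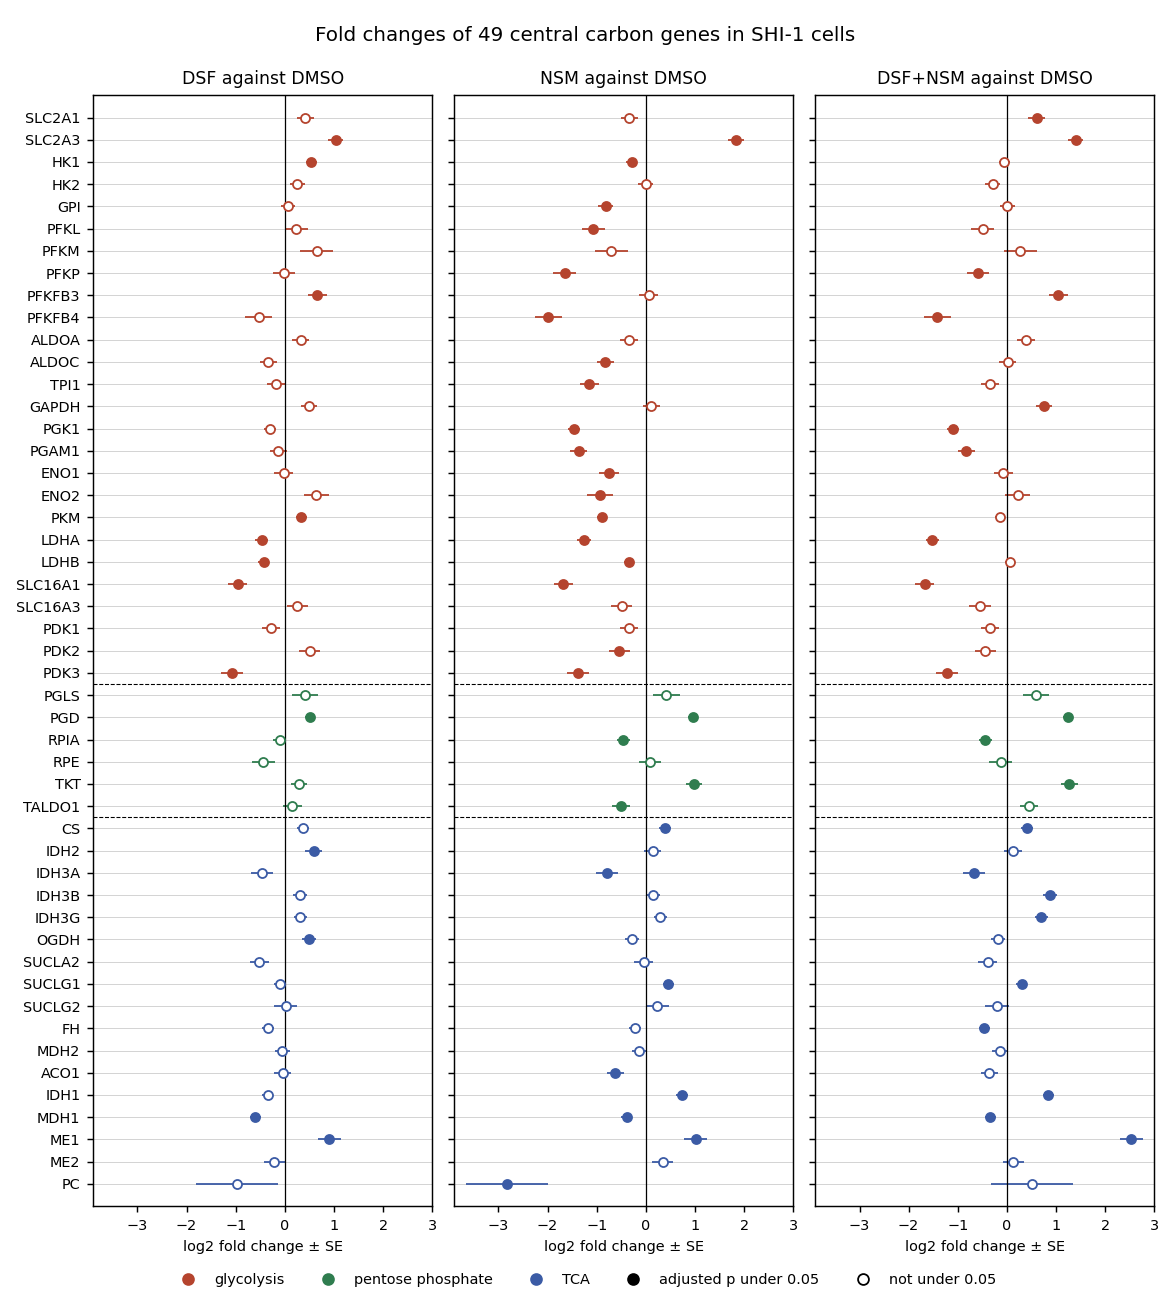
Log2 difference from DMSO (horizontal axes) of the 49 genes after DSF, NSM and DSF + NSM, ordered by pathway and step, with bars of 1 SE and filled symbols for adjusted p under 0.05. Glycolysis genes lie mostly left of 0 after NSM, with SLC2A3 at 1.83, and ME1 reaches 2.53 after DSF + NSM.

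DSF + NSM was next compared with each drug alone. Against DSF, 20 of 49 genes were called, 8 higher and 12 lower, where 43.1% of all genes were called, 21.7% higher and 21.4% lower. Glycolysis again held most of the falls, with 11 of 26 lower and 1 higher (median -0.40). Among called genes the largest falls were in LDHA (-1.04, SE 0.14, limma adjusted p = 0.000105), PDK2 (-0.94, SE 0.21, adjusted p = 0.0032) and PFKFB4 (-0.89, SE 0.27, adjusted p = 0.0204), and the largest rises in ME1 (1.63, SE 0.23, adjusted p = 0.000159), IDH1 (1.20, SE 0.12, adjusted p = 1e-05) and TKT (0.98, SE 0.17, adjusted p = 0.000566). The difference of PC, 1.48, did not pass the test. After scaling to equal sums 36 were called, 2 higher and 34 lower, where 8258 of 13537 genes were called and the median of all genes was -0.68. Without NSM replicate 3, which enters this fit through the shared spread, 33 were called, 17 higher and 16 lower. That fit called 8108 of 13476 genes. PDK2 shares 2113 exon bases with a gene on the opposite strand, and whether reads were counted by strand is not given in the sources used here.

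Against NSM, 22 of 49 genes were called by limma at an adjusted p under 0.05, 21 higher and 1 lower, where 38.6% of all genes were called, 20.3% higher and 18.3% lower. Of 26 glycolysis genes 15 rose and 1 fell (median 0.58), and all 9 genes of the triose phosphate steps rose (median 0.74). The largest rises among called genes were in PC (3.34, SE 0.83, adjusted p = 0.00762), ME1 (1.52, SE 0.23, adjusted p = 0.00032) and ENO2 (1.15, SE 0.26, adjusted p = 0.004), and the single fall was in SLC2A3 (-0.43, SE 0.16, adjusted p = 0.0469). ENO2 stood at 137, 118 and 65.2 normalized counts in NSM and at 256, 264 and 175 in DSF + NSM, without overlap. LDHA (-0.25), SLC16A1 (0.01) and PFKFB4 (0.58) were not called in this comparison. The direction depended on whether the libraries were scaled to equal sums. Rescaling by a trimmed mean of M values or by the median of ratios turned the sign of 3 and 1 genes, none of them called. After scaling to equal sums 24 genes were called, 6 higher and 18 lower, where 7386 of 13537 genes were called and the median of all genes was -0.48. Of the 22 original calls 7 held on that scale. Without NSM replicate 3, 25 genes were called, 21 higher and 4 lower, where 6624 of 13476 genes were called. PC was at 2.09 and ENO2 at 0.83 in that fit, and SLC2A3 no longer passed the test (-0.33, adjusted p = 0.0674).

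The last comparison tested whether the NSM difference was the same in the presence of DSF, as the interaction term of the fit. It was called for 12 of 49 genes by limma at an adjusted p under 0.05, 11 above 0 and 1 below, where 26.1% of all genes were called, 12.1% above and 14.0% below 0. Of 26 glycolysis genes 8 were above 0 and 1 below. The largest positive terms were those of PC (4.31, SE 1.18, adjusted p = 0.0176), PDK3 (1.24, SE 0.31, adjusted p = 0.0117) and ALDOC (1.18, SE 0.24, adjusted p = 0.00373), and the negative term was that of SLC2A3 (-1.46, SE 0.22, adjusted p = 0.00066). ALDOC, an aldolase of the middle of glycolysis, stood at 419, 405 and 437 normalized counts in DMSO, at 366, 317 and 317 in DSF, at 291, 247 and 182 in NSM and at 442, 439 and 393 in DSF + NSM. It was lowest with NSM alone, and its libraries with both drugs overlapped with DMSO. Taking the NSM difference without DSF and that with DSF, which share no library, 39 of 49 genes had the same sign. Among the glycolysis genes 22 of 26 had the same sign, 19 were lower in both, and 19 had a smaller difference with DSF. These counts were not made over all genes, so whether they are particular to the pathway was not tested. Without NSM replicate 3 the interaction was called for 25 genes, 20 above 0 and 5 below, and after scaling to equal sums for 12, 3 above 0 and 9 below. Over all genes these fits called 6175 of 13476 and 4774 of 13537. The median interaction term of all genes was -0.40 on the equal-sum scale. ALDOC, LDHB and SLC2A3 were called in every setting in which the interaction was fitted.

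**Figure D5:**
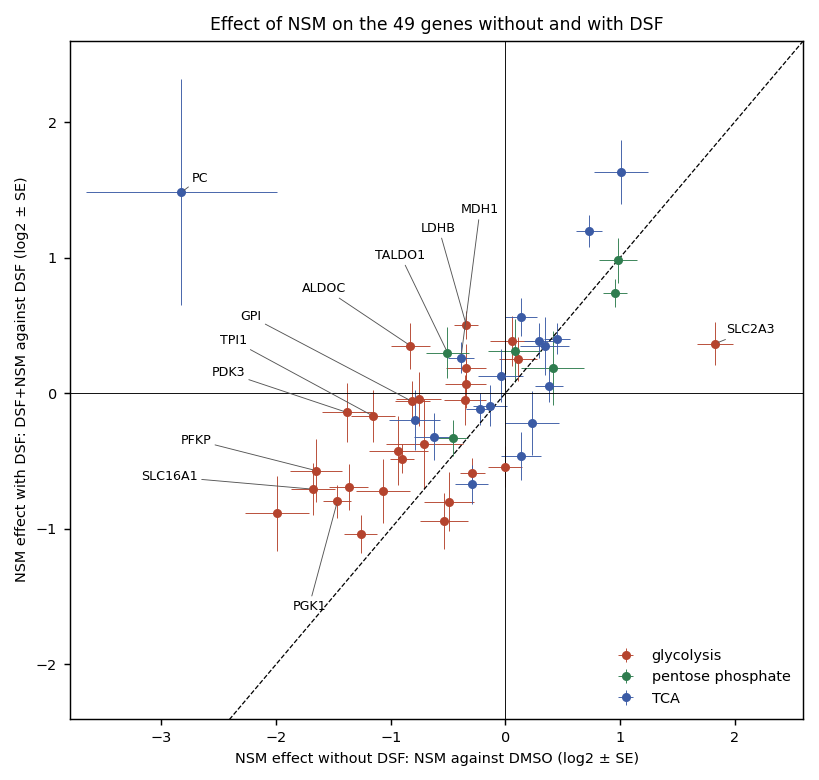
Log2 difference after NSM without DSF (NSM against DMSO, horizontal axis) and with DSF (DSF + NSM against DSF, vertical axis), with 1 point per gene colored by pathway, bars of 1 SE, names for the 12 genes with a called interaction and a dashed line of equal differences. Of the 26 glycolysis points 19 lie below 0 on both axes, while SLC2A3 lies at 1.83 and 0.36.

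Promoter sequences are shown for the genes with the largest rises and falls after DSF + NSM that have an entry in the RefSeq promoter table, ME1 and TKT among the rises and LDHA and PFKFB4 among the falls. Each is the 250 bases before the RefSeq transcription start on GRCh38.p14, written in the direction of the gene. The windows are chr6:83431052-83431301 (minus strand) for ME1, chr3:53256023-53256272 (minus strand) for TKT, chr11:18394313-18394562 (plus strand) for LDHA and chr3:48556804-48557053 (minus strand) for PFKFB4. Capitals mark matches on either strand to CACGTG, the E-box, to ACGTG or GCGTG, the forms of the hypoxia response core, and to TGATGNAAN, the CHOP and ATF4 composite element. Every CACGTG also holds ACGTG on both strands.
ME1: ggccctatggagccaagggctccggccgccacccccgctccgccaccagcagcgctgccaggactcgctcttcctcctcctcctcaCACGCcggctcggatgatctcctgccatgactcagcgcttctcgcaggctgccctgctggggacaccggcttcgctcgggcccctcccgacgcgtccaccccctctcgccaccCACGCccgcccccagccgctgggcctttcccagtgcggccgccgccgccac
TKT: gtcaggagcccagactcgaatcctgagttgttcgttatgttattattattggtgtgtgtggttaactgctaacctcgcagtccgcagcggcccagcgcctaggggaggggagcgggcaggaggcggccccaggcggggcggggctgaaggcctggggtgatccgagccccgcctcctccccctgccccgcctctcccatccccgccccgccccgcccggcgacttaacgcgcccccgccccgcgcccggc
LDHA: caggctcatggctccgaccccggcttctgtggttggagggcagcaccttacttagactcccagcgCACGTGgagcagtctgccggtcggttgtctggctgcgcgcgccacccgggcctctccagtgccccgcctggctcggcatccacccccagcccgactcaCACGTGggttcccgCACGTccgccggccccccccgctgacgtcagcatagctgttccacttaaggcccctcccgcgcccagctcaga
PFKFB4: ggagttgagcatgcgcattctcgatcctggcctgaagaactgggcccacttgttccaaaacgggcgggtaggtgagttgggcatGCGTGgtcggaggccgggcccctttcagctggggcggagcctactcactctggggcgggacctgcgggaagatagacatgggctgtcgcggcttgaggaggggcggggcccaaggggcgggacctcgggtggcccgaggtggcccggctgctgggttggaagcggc

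LDHA held CACGTG starting 185 and 87 bases before its start and a further ACGTG match 73 bases before it. ME1 held GCGTG at 164 and 51 bases before its start, PFKFB4 held it at 166, and TKT had a match to none of the 4 motifs in its window. Over the windows of the same length in the table, 6.34% of 35116 promoters held CACGTG, 18.5% ACGTG, 32.2% GCGTG and 3.13% TGATGNAAN. Of the 49 genes, 46 matched the table. CACGTG was in 5 of them, all among the 24 glycolysis genes matched, and ACGTG was in 16, of which 13 were glycolysis genes, 1 of the 6 was a pentose phosphate gene and 2 of the 16 were TCA genes. GCGTG was in 21 of the 46, with 9 in glycolysis, 2 in the pentose phosphate pathway and 10 in the TCA group, and TGATGNAAN was in 0 of the 46. These are matches of letters in a window and were not tested against expression.

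Other genes of these and neighbouring pathways, from a list of 60 of which 44 passed the filter, were read in the same fit. After DSF 4 of 44 were called higher and 2 lower (13.6%, against 17.8% of all genes), after NSM 9 and 17 (59.1%, against 49.1%) and after DSF + NSM 8 and 14 (50.0%, against 52.8%). The NSM median was -0.03 for 13 genes grouped with glycolysis (2 higher, 6 lower), GYS1 and PCK2 among them. It was -0.62 for 7 genes grouped with the pentose phosphate pathway (1 higher, 4 lower), PRPS2 among them. For 24 genes grouped with the TCA cycle, SLC25A10 among them, it was -0.07 (6 higher, 7 lower). After DSF + NSM these medians were -0.04 (4 and 4), -0.96 (1 and 4) and -0.04 (3 and 6). Both medians of the 7 genes grouped with the pentose phosphate pathway were thus below 0, unlike those of the 6 listed genes. As the 7 reach beyond that pathway, nothing is read from this about the pathway itself. With libraries scaled to equal sums 2 of the 44 were higher and 5 lower after DSF, 4 and 19 after NSM, and 1 and 35 after DSF + NSM. Over all 13537 genes 2460, 6754 and 9141 were called in that order. Without NSM replicate 3, 8 of the 44 were higher and 13 lower after DSF, 11 and 18 after NSM, and 12 and 16 after DSF + NSM. Over all 13476 genes 5551, 8076 and 9130 were called in that order. SLC2A6, a glucose transporter of lysosomes, counts among those called higher after DSF and DSF + NSM, but it stood at 1.84 to 3.06 normalized counts in DMSO and 10.2 to 17.1 in DSF, passed the filter only through the groups with DSF, and its fold depends on the added count of 1, so nothing is read from its call. PCK2, the mitochondrial phosphoenolpyruvate carboxykinase, had the next largest rise after DSF (1.68). It stood at 154, 135 and 146 in DMSO, at 411, 528 and 469 in DSF, at 541, 581 and 272 in NSM and at 233, 239 and 283 in DSF + NSM, and every treated library was above DMSO. The largest falls after DSF among called genes were those of C12orf5, which encodes the bisphosphatase TIGAR (-0.87), and ACLY, the ATP citrate lyase (-0.34). After NSM the largest changes among called genes were in PCK2 (1.60), PDHX of the pyruvate dehydrogenase complex (0.94), SLC25A10, the mitochondrial dicarboxylate carrier (-2.81), and GYS1, the muscle glycogen synthase (-2.06). With NSM replicate 3 left out these were 1.95, 0.59, -2.39 and -1.88 in that order. PDHX stood at 618, 565 and 1210 in NSM against 369 to 416 in DMSO, with replicate 3 the highest. SLC25A10 stood at 599, 615 and 577 in DMSO and at 106, 119 and 46.8 in NSM, without overlap. After DSF + NSM the enolase ENO3 was called higher (1.11, or 0.34 and not called on the equal-sum scale), and the largest falls were those of the phosphoribosyl pyrophosphate synthetase PRPS2 (-1.44) and DLAT of the pyruvate dehydrogenase complex (-1.37). DLAT stood at 436, 351 and 415 in DSF + NSM against 969 to 1064 in DMSO.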

How the data were processed

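The deposited tables, 1 per library, hold for each gene a signal that the authors made by dividing read counts by DESeq2 size factors (normalized count), over 24 libraries per the file headers, of which 12 were used here. The submitters' processing notes name bcl2fastq 2.19, Trimmomatic, Bowtie2, Picard, featureCounts, DESeq2 and hg38, while the study's methods name STAR and Salmon. How far each made these values is not given in the sources used here. Within 0.01 of a step, 32.2% to 32.9% of the values above 0 were whole multiples of their library's step, so reads were not recovered, and depth (10206614 to 19031015 reads) is an estimate.

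Values were taken as log2(normalized count + 1). The 13502 genes reaching 10 normalized counts in 3 or more libraries were fitted with limma 3.58.1 (trend, robust) in R 4.3.3, with the means of 4 groups and no block. Called means a Benjamini-Hochberg adjusted p under 0.05. The script was run on simulated data in which each gene had 1 spread shared by all groups. That simulation held no outlying library such as NSM replicate 3, so it does not cover the spread seen here. Full statistics are given against DMSO for the 4 genes that rose and the 4 that fell the most among called genes whose groups did not overlap, and for the 3 largest in the other comparisons. Statistics of other genes, PGK1, PGAM1, LDHB and GAPDH among them, were added after their values were seen. Gene positions and lengths are from GENCODE 44, promoters from RefSeq GRCh38.p14. The genes, lists and tests were chosen with earlier results of these data known. Alternatives were the pseudocount, the filter, the scaling (trimmed mean of M values, TMM, median of ratios, equal sums), library weights, a replicate block, each library left out and fits of the compared groups alone. P-values measure the spread between cultures of 1 cell line. Reads of pseudogenes and overlapping genes cannot be separated. The level of 1 marker gene is not reported here.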

Additional observations from a re-analysis of the deposited data

Results flagged for a closer look

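For 12 genes the NSM difference with DSF departed from that without DSF (interaction term, log2, limma adjusted p under 0.05). The term was -1.46 for SLC2A3, whose NSM difference was 1.83 without DSF and 0.36 with it. It was positive for the glycolysis genes GPI (0.75), PFKP (1.08), ALDOC (1.18), TPI1 (0.99), PGK1 (0.67), LDHB (0.84), SLC16A1 (0.97) and PDK3 (1.24). It was also positive for TALDO1 of the pentose phosphate pathway (0.80), MDH1 of the cytosolic TCA counterparts (0.65) and PC (4.31, or 3.06 without NSM replicate 3, the library in which PC was at 0). After scaling to equal sums GPI, PFKP, TPI1, PGK1, SLC16A1, PDK3, TALDO1 and MDH1 no longer passed the test, while SLC2A3, ALDOC, LDHB and PC did.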

How the results depend on the processing

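Scaling decided the most. With equal sums the median of all genes moved to -0.25 after NSM and -0.75 after DSF + NSM. It moved to -0.68 for DSF + NSM against DSF and to -0.48 against NSM. The calls became 37 for DSF + NSM against DMSO and 36 against DSF, where 9141 and 8258 of 13537 genes were called. Of 75 differences of the 49 genes that turned sign on that scale, 45 were called on neither scale and 30 on at least 1. Those 30 were, for DSF + NSM against DMSO, ALDOC -0.77, CS -0.37, GAPDH -0.034, GPI -0.78, IDH2 -0.66, IDH3G -0.081, LDHB -0.72, ME2 -0.65, SLC2A1 -0.18 and SUCLG1 -0.48, against DSF, ALDOA -0.62, CS -0.63, GAPDH -0.43, IDH3B -0.12, IDH3G -0.30, LDHB -0.19, MDH1 -0.42, SLC2A1 -0.50, SUCLA2 -0.56 and SUCLG1 -0.28, and against NSM, CS -0.48, IDH1 -0.40, IDH3G -0.10, LDHB -0.11, MDH1 -0.46, OGDH -0.40, PGD -0.22, PGK1 -0.15, RPIA -0.50 and SLC16A1 -0.51. With library weights, whose estimation stopped before convergence, 40 genes were called after DSF, 38 after DSF + NSM, 36 against DSF, 35 against NSM and 35 in the interaction. Of all 13502 genes, 8171, 10122, 9120, 9782 and 8933 were called with these weights in that order. RPE after NSM (-0.19) and PGLS against NSM (-0.17) turned sign with these weights among called differences. PGLS against NSM ranged from -0.26, without NSM replicate 3, to 0.41 with 1 library left out. Fits of the compared groups alone called 40 genes for DSF and 10 for DSF + NSM against NSM. Over all genes these fits called 7150 of 12766 and 2483 of 12970. Leaving out 1 library gave 6 to 33 calls for DSF, 25 to 34 for NSM, 18 to 34 for DSF + NSM, 16 to 33 against DSF, 15 to 25 against NSM and 8 to 25 in the interaction, the highest count each time without NSM replicate 3. Over all genes the ranges were 911 to 5551, 5416 to 8076, 5974 to 9130, 4656 to 8108, 3632 to 6624 and 2569 to 6175 in that order. Beyond these effects of construction the cause was not tested.

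Any pairing by replicate number was weak: of 18 pairs of same-numbered libraries 2 had deviations correlated above 0.1 (r from -0.06 to 0.28). Pairs with different numbers had r from -0.23 to 0.24. For DMSO and DSF the same-numbered pairs stood at 0.06, 0.05 and 0.02, and the others were below 0. A fit with the replicate block called 14 genes for DSF, 29 for NSM, 24 for DSF + NSM, 20 against DSF, 22 against NSM and 13 in the interaction. Of all 13502 genes it called 2520, 6850, 7279, 5978, 5403 and 3646 in that order, each more than without the block. Pseudocounts, filters and the replicate block turned no sign, and TMM and the median of ratios turned 7 and 5, none of them called. In every alternative, 6 of 13 calls held for DSF, 20 of 30 for NSM, 11 of 23 for DSF + NSM, 11 of 20 against DSF, 5 of 22 against NSM and 3 of 12 in the interaction. Depth limits the low genes, PC and PFKM among the 49.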
